A study of Mus musculus with 8 samples.

Results

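The genes described here, 10 in number, are Hippo, YAP and TEAD genes: the coactivator genes Yap1 and Wwtr1, the TEAD factor genes Tead1, Tead2, Tead3 and Tead4, the kinase genes Lats1 and Lats2, and the regulators Amotl2 and Vgll4. They were picked by gene name out of 33249 genes. All 10 passed the low-expression filter, a mean of 0.5 FPKM or more, together with 14018 others (FPKM is the authors' value per length and library size). Poly(A) RNA of mouse myocardium was sequenced in 8 libraries, 2 per group. The labels cross a genotype, fl/fl or CKO, with an operation, sham or MI, and name the groups accordingly (CKO-Sham, for example). All mice carried floxed Piezo1 alleles, Piezo1 being a stretch-gated cation channel. CKO mice also carried the tamoxifen-inducible Myh6-MerCreMer transgene, which is active in cardiomyocytes, and fl/fl mice were littermates without it. Tamoxifen was given at 4 weeks of age (whether the littermates also received it is not given in the sources used here). At 8 weeks the left anterior descending artery was tied for good (MI) or not tied (sham), and the MI hearts were taken on day 42. The labels do not say that the libraries of a group came from separate animals, so p-values measure the spread between these libraries.

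In the Hippo pathway, a cascade of kinases ends in LATS1 and LATS2, which phosphorylate YAP (from Yap1) and TAZ (from Wwtr1) and keep them in the cytoplasm. Unphosphorylated YAP and TAZ enter the nucleus, where they reach DNA mainly through TEAD proteins, and VGLL4 competes with them for TEAD. Angiomotin proteins such as AMOTL2 hold YAP at junctions. In the heart the pathway is known for restraining cardiomyocyte growth and for its activity in fibroblasts after injury. Messenger RNA levels do not show phosphorylation or location of these proteins.

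TEAD proteins bind the letters CATTCC, which read GGAATG on the other strand. The RefSeq promoter table of GRCm38.p6 (250 bases before to 50 after each start) held 8 of the 10 genes, and 6 of these 8 had the letters on one strand in at least one listed promoter. Among all 27025 genes in that table the share was 16.6%. Tead1 and Tead4 had no entry. The sites are shown because they are the letters through which the genes could be read by their own factors, with 12 bases on each side, on the gene's strand, the motif in capitals.
Yap1, chr9:8004720-8004749, minus strand: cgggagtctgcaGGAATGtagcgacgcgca
Wwtr1, chr3:57576029-57576058, minus strand: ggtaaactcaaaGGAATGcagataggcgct
Tead3, chr17:28350706-28350735, minus strand: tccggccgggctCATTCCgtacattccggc
Tead3, chr17:28350970-28350999, minus strand: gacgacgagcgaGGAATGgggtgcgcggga
Lats2, chr14:57746102-57746131, minus strand: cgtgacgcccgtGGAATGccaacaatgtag
Amotl2, chr9:102717727-102717756, plus strand: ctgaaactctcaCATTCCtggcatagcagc
Vgll4, chr6:114969268-114969297, minus strand: cgagtggggtggGGAATGctgagaaatgcc
The promoters of 2 known YAP/TEAD targets described further on are given for comparison.
Ccn1, chr3:145650071-145650100, minus strand: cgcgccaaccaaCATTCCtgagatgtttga
Ankrd1, chr19:36119950-36119979, minus strand: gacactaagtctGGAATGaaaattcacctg
Tead3 held 4 such sites over its listed promoters and Ankrd1 2, of which a part is shown. The Tead3 stretch at chr17:28350706-28350735 holds another CATTCC, counted as a site of its own and left in small letters. The windows of Tead2 and Lats1 did not hold these letters. A match is a description and says nothing of binding, and genes with a match lay among those higher, lower and not called after MI.

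The deposited counts summed to between 73821747 and 88117573 per library. Transcripts of the mitochondrial genome made up 43.1% to 46.4% of a sham library and 19.9% to 24.2% of an MI library, so the scaling matters to every level given here. Levels are counts scaled to TMM library size (CPM) unless named FPKM. Piezo1 did not fall with the genotype label: it stood at 71.9 and 81.6 CPM in fl/fl-Sham and at 76.3 and 87.9 CPM in CKO-Sham (log2 difference 0.10, SE 0.16), so the gene total, which also counts Piezo1 RNA of other heart cells, gave no check of that label. The genotype names are used as labelled. Marker sums moved with MI: 10 fibroblast genes summed to 1523 to 1708 CPM in sham and 2487 to 6874 CPM in MI, and 10 endothelial genes to 1938 to 2344 and 698 to 1157 CPM. The 5 atrial genes summed to 134 to 591 CPM in sham, 2535 to 4430 CPM in 3 MI libraries and 19764 CPM in fl/fl-MI 2, and no marker was at 0 in any library. Of the 5 atrial genes only Nppa was called over both genotypes (log2 change 4.50, SE 0.62, edgeR adjusted p = 0.00231). With MI, 5 of the 5 were higher in fl/fl (median log2 change 6.70) but only 1 in CKO (median -1.14), so the atrial sum does not describe each gene. The cardiomyocyte genes summed to 32639 to 37727 CPM in sham and 17188 to 35084 CPM in MI, smooth muscle and pericyte genes to 1601 to 1735 and 664 to 988, macrophage genes to 512 to 602 and 483 to 1244, and epicardial genes to 33.7 to 44.2 and 34.3 to 176. Fewer cells of a type and less RNA per cell cannot be told apart in these bulk samples, and the part of these shifts in the results below was not tested.

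Per length the order in sham ran Wwtr1 (16.7 FPKM), Amotl2 (8.84), Lats2 (5.61), Yap1 (4.80), Lats1 (3.41), Tead3 (3.20), Vgll4 (2.91), Tead1 (2.68), Tead2 (2.18) and Tead4 (1.03), as means of 4 libraries. Lats2 and Yap1 overlapped in their range over libraries, as did each neighbour from Lats1 down to Tead2. In MI the order was Wwtr1 (24.6 FPKM), Tead1 (15.1), Amotl2 (11.7), Yap1 (10.9), Lats2 (8.54), Vgll4 (5.39), Lats1 (4.85), Tead3 (2.95), Tead2 (1.76) and Tead4 (0.965). By these means Tead1 stood 8th in sham and 2nd in MI. Its sham mean included CKO-Sham 2 at 0.213 FPKM, beside 3.22 to 3.85 FPKM in the other sham libraries. In MI the ranges overlapped from Tead1 down to Lats2 and between Vgll4 and Lats1.

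**Figure D1:**
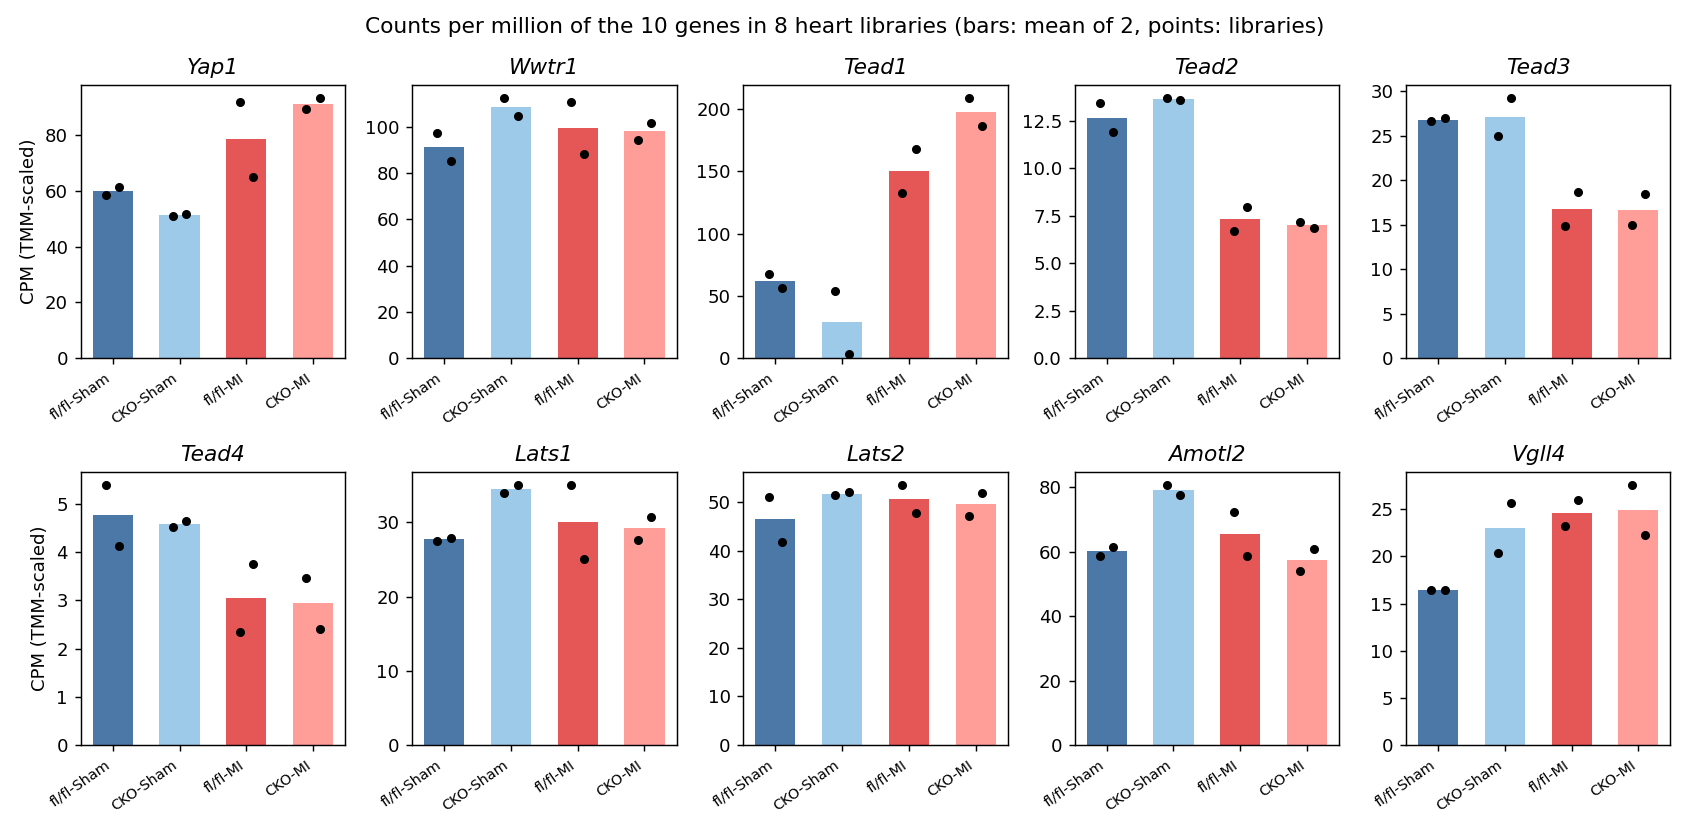
CPM (vertical axes, from 0) of the 10 genes in the 4 groups, with bars for the mean of 2 libraries and a point per library. Tead1 was above 130 CPM in the 4 MI libraries and at 3.70 CPM in CKO-Sham 2, and Tead2 and Tead3 were lower in every MI library than in any sham library.

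The first question was whether infarction changed the level of these genes, with MI set against sham over both genotypes (4 libraries against 4). Yap1 rose 1.53-fold, Tead2 fell 1.83-fold and Tead3 fell 1.61-fold, and the other 7 genes did not pass (edgeR's quasi-likelihood test, adjusted p below 0.05 over 14028 genes). Over all tested genes 40.4% passed, so 3 of 10 is not above the background. The median log2 change was -0.04 over the 10 genes and 0.03 over all tested genes. Groups of 4 without overlap were seen for 5 of the 10 genes and for 40.4% of all tested genes.

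Yap1, the coactivator, stood at 58.4 and 61.4 CPM in fl/fl-Sham and 50.9 and 51.7 CPM in CKO-Sham. After MI the fl/fl hearts had 91.8 and 65.0 CPM and the CKO hearts 89.1 and 93.2 CPM. Every MI library lay above every sham library, with fl/fl-MI 2 the lowest of the 4. The log2 change was 0.61 (SE 0.13, adjusted p = 0.00947 by edgeR), and it was 0.72 without fl/fl-MI 2 (adjusted p = 0.000488). Within CKO the change was 0.83 (SE 0.18, adjusted p = 0.0196), a call lost without any 1 of the 4 CKO libraries (adjusted p = 0.0709 to 0.132). Within fl/fl it was 0.39 (SE 0.18, adjusted p = 0.163), or 0.62 without fl/fl-MI 2 (adjusted p = 0.0118) and 0.09 without fl/fl-MI 1 (adjusted p = 0.637). The difference between the genotypes' responses did not pass (interaction, log2 difference 0.44, SE 0.25, adjusted p = 0.667).

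Wwtr1, which encodes the related coactivator TAZ, stood at 85.0 to 112 CPM in sham and 88.2 to 111 CPM in MI. The groups overlapped almost fully, and the log2 change was -0.01 (SE 0.11, adjusted p = 0.942). Per length it was the highest of the 10 genes in both conditions, at 16.7 ± 1.84 FPKM in sham and 24.6 ± 4.51 FPKM in MI (SD, n = 4). In FPKM, where the median of all genes is itself higher in MI, its ranges did not overlap (14.7 to 19.0 and 20.1 to 29.7). It was called on log2(FPKM + 1) (0.52, limma adjusted p = 0.021, median of all genes 0.41). The ratio of Wwtr1 to Yap1 FPKM does not depend on library scaling. It was 3.24, 2.69, 4.28 and 3.92 in the sham libraries (fl/fl 1, 2, then CKO 1, 2) and 2.33, 2.63, 2.06 and 2.11 in the MI libraries in the same order. All 4 MI ratios were below all 4 sham ratios, although fl/fl-MI 2 and fl/fl-Sham 2 nearly met. On the log2 scale the ratio dropped by 0.61 (exact two-sided permutation test, p = 0.0286, the smallest that 4 against 4 can give, 0.0429 adjusted over 3 ratios).

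Yap1 was listed under 2 main protein-coding transcripts, one with 8 and one with 9 exons. They differ by exon 6 of the longer one and by a few bases at the 5′ end (position 8004588 against 8004596 of chromosome 9). Exon 6 is shown because it is coding: 48 bases or 16 codons, chr9:7950492-7950539 of GRCm38, minus strand.
Yap1 exon 6: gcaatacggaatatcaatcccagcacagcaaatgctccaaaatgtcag
The 8-exon transcript took 53.8% and 79.3% of Yap1 FPKM in fl/fl-Sham, 34.8% and 41.2% in CKO-Sham, 88.3% and 42.7% in fl/fl after MI and 40.2% and 61.0% in CKO after MI. Libraries of the same group differed by up to 45.6 percentage points, and the difference between MI and sham did not pass (5.75 percentage points, exact permutation test, p = 0.686). The same test was run on the leading transcript of each of the 10 genes, and none passed after adjustment over them. For Vgll4 that share fell from 66.3% to 70.4% in sham to 53.4% to 60.4% in MI without overlap (p = 0.0286 by the exact permutation test, 0.285 adjusted over 10 genes). The leading transcripts of Vgll4 and Tead3 were listed as a processed transcript and a retained intron, not as protein-coding.

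The TEAD genes, which encode the DNA-binding partners, did not move together. Tead1 stood at 67.6 and 56.4 CPM in fl/fl-Sham and at 54.2 and 3.70 CPM in CKO-Sham. After MI the fl/fl hearts had 133 and 168 CPM and the CKO hearts 209 and 186 CPM. All MI libraries lay above all sham libraries, and CKO-Sham 2 stood far below the other 3 sham libraries. The log2 change was 2.02 (SE 0.68), or 4.07-fold, and narrowly missed the threshold (adjusted p = 0.0502 by edgeR). It passed with DESeq2 (adjusted p = 0.0272) and, by edgeR, with counts divided by 4 (0.0456) or no filter (0.0142). On the FPKM and TPM scales, where the median of all genes is higher, it also passed. With RLE factors, the replicate block or no mitochondrial genes it did not pass. Without CKO-Sham 2 it was smaller at 1.57 and passed (adjusted p = 0.00614). Without CKO-Sham 1 it was 3.51 (adjusted p = 0.00433). Within fl/fl it was 1.28 (SE 0.94, adjusted p = 0.364) and within CKO 2.77 (SE 0.99, adjusted p = 0.0809). With CKO-Sham 2 left out of the fit these were 1.28 (adjusted p = 0.0247) and 1.87 (adjusted p = 0.0356), and with CKO-Sham 1 left out 1.28 (adjusted p = 0.0245) and 5.74 (adjusted p = 0.0367).

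The low value of CKO-Sham 2 lay in the long transcripts of Tead1. The 3 listed transcripts over 9000 bases, which end near position 112906807 of chromosome 7, had 3863, 3549 and 3919 counts in the other sham libraries, 0 in CKO-Sham 2 and 13730 to 17538 in MI. The other 9 Tead1 transcripts had 226 counts in CKO-Sham 2 and 31 to 118 in the other sham libraries. In fl/fl-Sham 1 the long counts were listed under a different transcript (ENSMUST00000239442) than in the 6 remaining libraries with long counts (mainly ENSMUST00000069256). Genes with longer leading transcripts tended to be higher in MI: the median log2 change was -0.40 among genes whose leading transcript had at most 806 bases and 0.27 among those with 6208 or more. Of 362 genes with a leading transcript of at least 9000 bases, whose median was 0.26, 6 had a log2 change as high as that of Tead1 or higher (Tead1 itself counted among them). The part of length in the Tead1 difference was not tested.

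Tead2 stood at 13.5, 11.9, 13.7 and 13.6 CPM in the sham libraries and at 6.69, 7.99, 7.17 and 6.88 CPM in the MI libraries. The groups were well apart, with fl/fl-Sham 2 the lowest of sham. The log2 change was -0.87 (SE 0.13, adjusted p = 0.00266), with -0.79 in fl/fl (SE 0.18, adjusted p = 0.0276) and -0.96 in CKO (SE 0.18, adjusted p = 0.0128). The call in fl/fl was lost without any 1 sham library (adjusted p = 0.0642 to 0.167) and the call in CKO without any 1 CKO library (0.0552 to 0.0923). The genes whose log2 CPM followed Tead2 most closely over the 8 libraries were Luc7l2 (Pearson r = 0.996), Sun1 (r = 0.994) and Prickle1 (r = 0.992). With 1131 of 14027 genes at r over 0.9, this likeness mainly describes a split between sham and MI.

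Tead3 stood at 24.9 to 29.2 CPM in sham and 14.9 to 18.7 CPM in MI, again without overlap. Its log2 change was -0.69 (SE 0.13, adjusted p = 0.00627), with -0.68 in fl/fl (SE 0.18, adjusted p = 0.0428) and -0.70 in CKO (SE 0.18, adjusted p = 0.0318). The call in fl/fl was lost without any 1 sham library or fl/fl-MI 1 (adjusted p = 0.0514 to 0.199), and the call in CKO without any 1 CKO or fl/fl-Sham library (0.0671 to 0.162). Tead4, the least abundant of the 10 genes, stood at 4.13 to 5.40 CPM in sham and 2.35 to 3.75 CPM in MI. It too had no overlap, but its log2 change of -0.64 (SE 0.24) did not pass (adjusted p = 0.0679), while it passed without fl/fl-MI 2 (-0.83, adjusted p = 0.0199). The directions of Tead2, Tead3 and Tead4 depend on the scale. On log2(TPM + 1) the median of all genes was 0.92 and their values were 0.20, 0.37 and 0.30, still 0.71, 0.54 and 0.62 lower than that median.

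**Figure D2:**
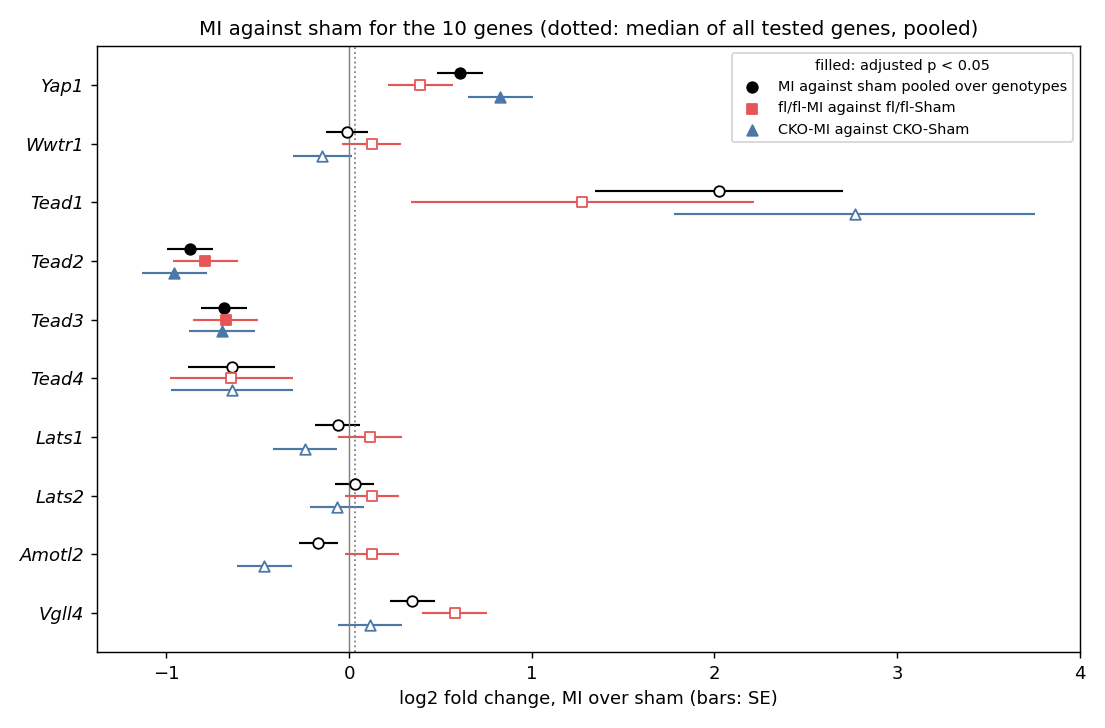
Log2 change from sham to MI (horizontal axis, bars 1 SE) of the 10 genes over both genotypes and within each, with filled symbols where the adjusted p was below 0.05. Tead2 and Tead3 are filled in all 3 comparisons, Yap1 over both genotypes and in CKO, and the Tead1 points lie farthest right with the widest errors, up to 2.77 (SE 0.99) in CKO.

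As a share of the summed FPKM of the 4 TEAD genes, Tead1 took 37.6%, 35.3%, 33.9% and 3.10% in the sham libraries. In MI libraries its share was 69.3% to 76.7%. Tead3 took 29.9% to 49.8% in sham and 11.1% to 15.8% in MI. The summed FPKM itself was 6.86 to 10.2 in sham, with CKO-Sham 2 the lowest, and 18.0 to 23.6 in MI. On the FPKM scale the median of all genes is itself higher in MI (0.41 on log2(FPKM + 1)), so the summed rise includes that shift. In sham, Tead1 and Tead3 levels overlapped per length. Tead1 was the highest TEAD gene in fl/fl-Sham 1, fl/fl-Sham 2 and CKO-Sham 1, and the lowest in CKO-Sham 2. In MI Tead1 was the highest TEAD gene in every library. These shares describe the levels already given and carry no test of their own. The ratio of Tead4 to Tead1 was 0.299, 0.275, 0.312 and 4.77 in the sham libraries and 0.0666, 0.0838, 0.0623 and 0.0486 in the MI libraries. Its log2 value dropped by 3.21 (exact two-sided permutation test, p = 0.0286, 0.0429 adjusted over 3 ratios), and by 2.20 without CKO-Sham 2.

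**Figure D3:**
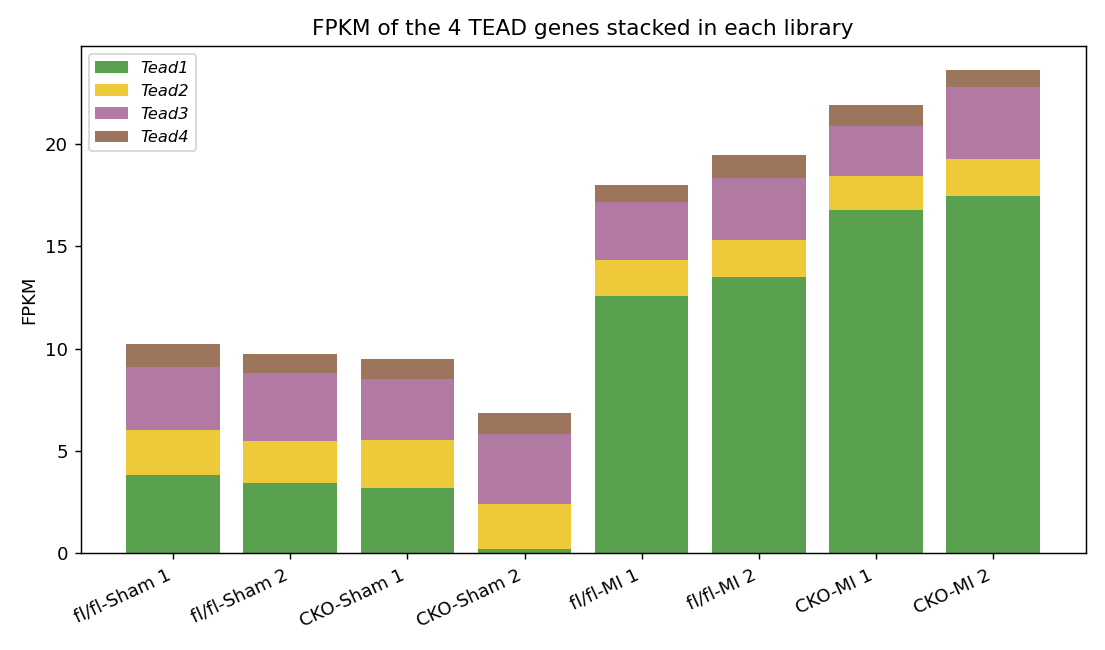
FPKM of Tead1, Tead2, Tead3 and Tead4 (vertical axis, stacked from 0) in the 8 libraries. The stacks reach 18.0 to 23.6 FPKM in MI, mostly Tead1, and 6.86 to 10.2 FPKM in sham, where CKO-Sham 2 has 0.213 FPKM of Tead1. The median of all genes is itself higher in MI on the FPKM scale.

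The kinase genes Lats1 and Lats2, whose products phosphorylate YAP and TAZ, did not pass on TMM-scaled counts. Lats1 stood at 27.5 to 35.1 CPM in sham and 25.1 to 35.1 CPM in MI (log2 change -0.06, SE 0.12, adjusted p = 0.713). Lats2 stood at 41.8 to 52.0 CPM in sham and 47.2 to 53.5 CPM in MI (log2 change 0.03, SE 0.10, adjusted p = 0.834). Their groups overlapped. In FPKM, where the median of all genes is itself higher in MI, Lats2 stood at 4.96 to 5.95 in sham and 7.39 to 9.86 in MI without overlap, and it was called on log2(FPKM + 1) (0.52, limma adjusted p = 0.0119, median of all genes 0.41). The ratio of Lats2 to Lats1 FPKM was 1.55 to 1.94 in sham and 1.60 to 1.99 in MI, and its log2 difference of 0.11 did not pass (exact two-sided permutation test, p = 0.286, 0.286 adjusted over 3 ratios).

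**Figure D4:**
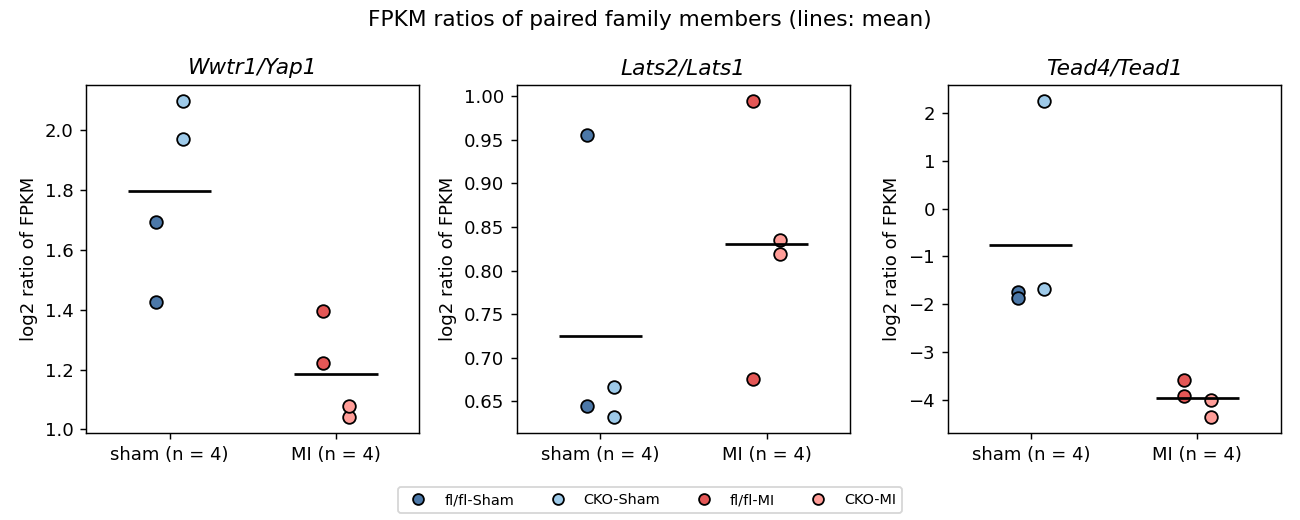
Log2 ratio of FPKM (vertical axes, one scale per panel) for Wwtr1 to Yap1, Lats2 to Lats1 and Tead4 to Tead1, with a point per library and a line at the mean of 4. The sham and MI points are apart in the outer panels and mixed in the middle one, and CKO-Sham 2 stands alone at 2.25 in the right one.

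Amotl2, an angiomotin family gene and itself a YAP target, stood at 58.7 and 61.5 CPM in fl/fl-Sham and 80.8 and 77.6 CPM in CKO-Sham. After MI the fl/fl hearts had 72.4 and 58.7 CPM and the CKO hearts 54.0 and 60.8 CPM. The 2 libraries labelled CKO-Sham were the highest of the 8. Over both genotypes its log2 change with MI was -0.17 (SE 0.11, adjusted p = 0.238), with 0.13 in fl/fl (SE 0.15, adjusted p = 0.581) and -0.46 in CKO (SE 0.15, adjusted p = 0.0620, or 0.0140 and 0.0158 with fl/fl-MI 1 or fl/fl-MI 2 left out of the fit). In CKO the Amotl2 change passed with DESeq2 (adjusted p = 0.0218). By edgeR it passed with only the 4 libraries compared (adjusted p = 0.0411) or the filter at 5 (adjusted p = 0.0401). On the FPKM and TPM scales its direction turned and it did not pass. Vgll4, whose product competes with YAP for TEAD, stood at 16.5 and 16.5 CPM in fl/fl-Sham and 20.3 and 25.7 CPM in CKO-Sham. After MI the fl/fl hearts had 23.2 and 26.0 CPM and the CKO hearts 27.6 and 22.2 CPM. CKO-Sham 2 lay among the MI libraries, and the log2 change of 0.35 (SE 0.12) did not pass (adjusted p = 0.0620), nor did 0.58 in fl/fl (SE 0.18, adjusted p = 0.0607, or 0.0478 without fl/fl-MI 1) or 0.11 in CKO (SE 0.18, adjusted p = 0.660).

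Within each genotype, 2 of the 10 genes passed in fl/fl and 3 in CKO, beside 18.5% and 24.7% of all tested genes. Those counts ran from 0 to 3 in fl/fl and from 0 to 4 in CKO when each library was left out, while the share of all tested genes ran from 0.848% to 29.8% and from 0.178% to 41.3%. Over both genotypes the count was 6 without fl/fl-MI 1, where 48.5% of all tested genes passed, with Tead1 (log2 change 2.08, adjusted p = 0.0434), Amotl2 (-0.27, adjusted p = 0.0429) and Vgll4 (0.37, adjusted p = 0.0472) added.

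The second question was whether the genotype changed these genes. None of the 10 passed between CKO-MI and fl/fl-MI, where log2 differences ran from -0.19 to 0.39 and adjusted p from 0.764 to 0.996. Over all genes 0.0% passed by edgeR (0 of 14028, with 1166 at an unadjusted p below 0.05), and DESeq2 called 207. Without fl/fl-MI 1 the count over all genes was 1674 (11.9%) and without fl/fl-MI 2 it was 27, with 0 of the 10 genes among them in either case. None passed between CKO-Sham and fl/fl-Sham either, where 1 gene in all did (0.00713%; DESeq2 called 34). Amotl2 was 0.40 higher (SE 0.15) and Vgll4 0.48 higher (SE 0.18) on the log2 scale in the libraries labelled CKO-Sham, with unadjusted edgeR p of 0.0325 and 0.0289 and adjusted p of 1.0. The log2 difference of Tead1 was -1.10 (SE 0.94), with CKO-Sham 2 at 3.70 CPM. The interaction of genotype and MI passed for no member and for 0.0% of all genes (1191 at an unadjusted p below 0.05; DESeq2 called 131). Without fl/fl-MI 1 the interaction passed for 751 genes (5.35%) and without fl/fl-MI 2 for 5, again 0 of the 10 among them. Amotl2 had the smallest unadjusted p there (log2 difference -0.59, SE 0.21, unadjusted p = 0.0269, adjusted p = 0.574 by edgeR).

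Of 25 YAP/TEAD target genes, 23 were tested over both genotypes, 13 were called higher and 1 lower with MI, beside 22.0% and 18.3% of all tested genes. Of the 13, 1 averaged under 0.5 FPKM in sham and so passed the filter through MI. Their median log2 change was 0.72 beside 0.03 over all genes. Ccn2, a secreted matrix protein gene, stood at 43.2 to 97.3 CPM in sham and 346 to 1071 CPM in MI (log2 change 3.56, SE 0.28, adjusted p = 0.000557). Ankrd1, a cardiac stress gene of the sarcomere, stood at 237 to 617 CPM in sham and 2464 to 5157 CPM in MI (log2 change 3.43, SE 0.31, adjusted p = 0.000696). Ccn1, the relative of Ccn2, stood at 25.9 to 38.2 CPM in sham and 63.6 to 265 CPM in MI (log2 change 2.69, SE 0.40, adjusted p = 0.00286). The 4 MI libraries lay above the 4 sham libraries for each of the 3, with CKO-MI 2 the lowest MI library for Ccn1 and Ccn2. Ptpn14, Amotl1 and Ajuba stand in 2 of the lists. Several targets are also fibroblast or wall-stress genes, and the fibroblast marker sums given above were higher in the same libraries, whose part in these values was not tested.

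Of 47 Hippo kinases, adaptors and upstream regulators, 46 were tested, 17 were called higher and 7 lower, beside the same 22.0% and 18.3% of all tested genes, with a median of 0.21 beside 0.03. Fat1, an atypical cadherin gene, rose from 23.2 to 31.4 CPM in sham to 49.3 to 96.4 CPM in MI (log2 change 1.49, SE 0.22, adjusted p = 0.00306). Map4k2, an upstream kinase of LATS, fell by 1.85 on the log2 scale (SE 0.14, adjusted p = 0.000533). Stk26, a germinal centre kinase gene and 1 of the 17, averaged 0.309 FPKM in sham and 1.34 FPKM in MI, and so passed the filter through the MI libraries in which it is high. Its log2 change was 2.38 in fl/fl (SE 0.32) and 0.58 in CKO (SE 0.31), the latter not called (edgeR adjusted p = 0.208). The difference between these 2 changes did not pass (interaction, log2 difference -1.80, SE 0.44, edgeR adjusted p = 0.563). Of 12 TEAD cofactors and partners, 10 were tested, 3 were called higher and 1 lower, with a median of 0.07, which is near the shares of all tested genes (22.0% and 18.3%). Vgll3, a TEAD-binding cofactor gene, ran from 6.58 to 7.84 CPM in sham and from 6.49 to 31.2 CPM in MI, with fl/fl-MI 2 at the sham level (log2 change 1.49, SE 0.46, adjusted p = 0.0385). Without fl/fl-MI 1 the change of Vgll3 was 0.70 (adjusted p = 0.0282). Tcf7l2, a Wnt pathway factor gene, fell by 0.69 (SE 0.16, adjusted p = 0.0146) and Ncoa1, a nuclear receptor coactivator gene, rose by 0.51 (SE 0.16, adjusted p = 0.0389). The count of cofactors called higher was 0 without fl/fl-Sham 1, fl/fl-Sham 2, CKO-MI 1 or CKO-MI 2, 1 without CKO-Sham 1 and 2 without CKO-Sham 2. Vgll3 and Ncoa1 lost their calls without any 1 sham or CKO-MI library (adjusted p = 0.0582 to 0.128), and Tcf7l2 lost its call without fl/fl-Sham 1, fl/fl-Sham 2 or CKO-Sham 1 (adjusted p = 0.0532 to 0.0635). The Hippo list held 7 lower genes with all libraries and 4 without any one sham library or CKO-MI 1.

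**Figure D5:**
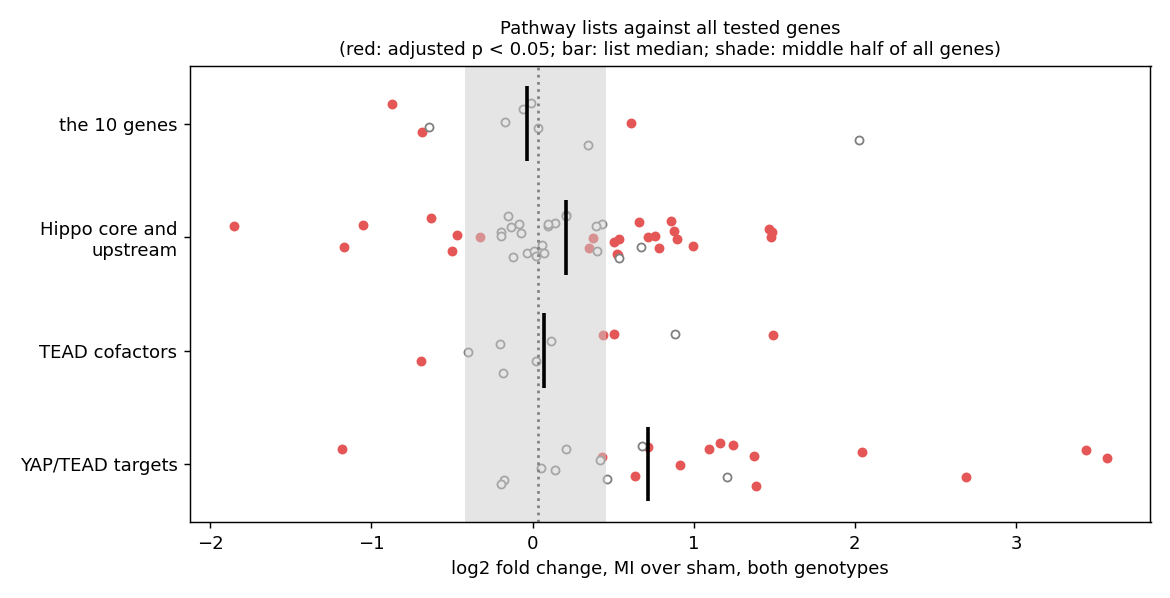
Log2 change from sham to MI over both genotypes (horizontal axis) of each tested gene of 4 lists, red where the adjusted p was below 0.05, with a bar at the list median; the shade spans the 25th to 75th percentile of all tested genes. The target genes have a median of 0.72, beyond the shade, while the other 3 medians lie between -0.04 and 0.21.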

How the data were processed

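The authors sequenced poly(A) RNA of 8 libraries as paired reads of 150 bases, and the submitters' processing notes name cutadapt 1.9 and FastQC. The aligner, counter and genome build are not given in the sources used here. Coordinates equalled those of GENCODE M21 (GRCm38) for 86.4% of 33249 genes and 8 of the 10 described (not Tead3 and Lats2, whose spans differ). The authors deposited a whole-number estimated count (expected count, about 4 units per read pair) and an FPKM value per gene and per transcript, FPKM being scaled by them to length and library size. Counts were used as deposited.

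The 10 genes and all lists were chosen with earlier results of these data known, so their directions are not independent evidence. Genes averaging 0.5 FPKM or more over the libraries were tested with edgeR 4.0.16 (R 4.3.3; TMM, quasi-likelihood, 1 mean per group, all 8 libraries), with Benjamini-Hochberg adjustment over 14028 genes and calls at an adjusted p below 0.05. The code was tested on simulated data. Ratios and transcript shares were compared by exact two-sided permutation tests over libraries. Alternatives were DESeq2 1.42.0, limma 3.58.1 on log2(FPKM + 1), log2(FPKM + 0.1) and log2(TPM + 1), RLE factors, other filters, counts divided by 4, totals without mitochondrial genes, a replicate block, only the 4 libraries compared, and each library left out. The genes named were the 10, and per list the 3 called genes with the largest change. No column of comparisons by the authors was used. Deposited counts can be split between overlapping genes: Tead1 overlaps 2310014F06Rik and Tead2 overlaps Cd37 on the other strand, and whether counting used strand is not given in the sources used here.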

Additional observations from a re-analysis of the deposited data

Results flagged for a closer look

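In each of the 10 genes and 3 ratios, the 4 sham and the 4 MI libraries (genotypes together) were searched for a library that stands apart, by its gap to the nearest library as a share of the whole range. Of 26 such groups 6 had a library past Dixon's critical value for 4 libraries, which chance alone passes in about 1 in 20. CKO-Sham 2 was low in Tead1 (share 0.924) and so high in the ratio of Tead4 to Tead1 (0.956). Fl/fl-Sham 2 was low in Tead2 (0.871) and in Lats2 (0.916), by amounts small in CPM. Fl/fl-Sham 1 was high in the ratio of Lats2 to Lats1 (0.892). Fl/fl-MI 2, the library with the highest atrial marker sum, was low in Yap1 (0.875).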

How the results depend on the processing

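Yap1 over both genotypes stayed called and higher under each alternative run. Tead2 and Tead3 stayed lower and called under all except the FPKM and TPM scales (and the filter at a mean FPKM of 5, which removes them). Members called over both genotypes (3) became 5 with DESeq2, 5 on either FPKM scale, 7 on TPM, 1 with the filter at 5 and 3 to 6 with a library left out. The share of all tested genes called moved too, from 40.4% to 46.2% with DESeq2, 56.1% and 56.7% on FPKM, 78.6% on TPM, 52.6% with the filter at 5 and 23.1% to 50.7% with a library left out. Members called over both genotypes were 4 with counts divided by 4 (40.4% of all tested genes) and 4 with no filter (17.1%). The filter at 5 left 5 of the 10 genes to test. In fl/fl the 2 became 4 on log2(FPKM + 0.1), 5 on log2(FPKM + 1) and 7 on TPM, beside 38.8%, 37.5% and 67.0% of all tested genes. They became 0 with the filter at 5, with no filter or with only the 4 libraries compared, beside 29.0%, 8.0% and 1.42%. In CKO the 3 became 5 with DESeq2 and 6 on TPM, beside 33.7% and 62.9% of all tested genes. The ranges within each genotype with a library left out are given above. With the replicate number as a block, 1 member was called in fl/fl, and the log2 ratios of Wwtr1 to Yap1 and Tead4 to Tead1 kept their values (-0.61 and -3.21) at an adjusted p of 0.0833, since the smallest unadjusted p is 0.0556. Deviations of same-numbered libraries correlated between -0.17 and 0.06, so no pairing by number was seen in them. The labels do not say what the numbers stand for, and a shared preparation was not tested. The block left 5085 genes called in place of 5662 and changed no other member's call (Vgll3, no member, lost its call at an edgeR adjusted p of 0.0642). Ratios could not pass with a library left out (smallest p 0.0571; ranges -0.74 to -0.51 and -3.57 to -2.20) or in 1 genotype (smallest p 0.333), where they were -0.25 and -1.94 in fl/fl and -0.98 and -4.47 in CKO.

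The FPKM and TPM scales raise the median of all genes to 0.41 on log2(FPKM + 1), 0.56 on log2(FPKM + 0.1) and 0.92 on log2(TPM + 1), where 89.4%, 89.6% and 97.5% of calls are higher against 54.6% on TMM. In that order Wwtr1 turned to 0.52, 0.55 and 1.09 and Lats2 from 0.03 to 0.52, 0.59 and 1.08, both called on all 3. Lats1 turned to 0.40, 0.48 and 0.93 and Amotl2 to 0.36, 0.39 and 0.91, each called on TPM only. In CKO Amotl2 turned to 0.091, 0.098 and 0.64, not called. On TPM, Tead2 turned to 0.20 (0.26 in fl/fl, 0.14 in CKO), Tead3 to 0.37 (0.38 and 0.37), Tead4 to 0.30 and Tcf7l2 to 0.28. Values near 0 also changed sign: with no filter Wwtr1 was 0.054 and Lats1 0.0045, and Lats2 was -0.043 with the filter at 5 and -0.0020 without mitochondrial genes. With a library left out, Wwtr1 ran from -0.12 to 0.065, Lats1 from -0.21 to 0.049, Lats2 from -0.038 to 0.11, Amotl2 in fl/fl from -0.060 to 0.27 and Vgll4 in CKO from -0.071 to 0.29. The cause of the other changes was not tested. With 2 libraries per group, the calls of Tead1, Tead4, Vgll4 and Amotl2 turned on which library was left out and on the processing used. DESeq2 called Tead4 over both genotypes (adjusted p = 0.0321) and Vgll4 in fl/fl (adjusted p = 0.0479).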
